A study of Mus musculus with 6 samples.

Results

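The cytosolic ribosomal protein genes were followed in mouse lens capsules at 0 h and 72 h after removal of the lens fiber mass. Members were the protein-coding genes with a ribosomal protein symbol (Rpl or Rps with a number, plus Rplp0, Rplp1, Rplp2 and Rpsa), without pseudogenes or the kinases named after Rps6. The rule used no measured value and found 84 of the 56940 genes in the count files, 52 of the large and 32 of the small ribosomal subunit.

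The study is a mouse model of cataract surgery, in which the fiber cells are taken out through an opening in the front of the lens and the capsule stays in the eye with the lens epithelial cells on it. All 6 libraries came from lens capsules of C57BL/6 mice that the labels call wildtype, 3 collected directly at surgery (0 h) and 3 collected 72 h later. Each library pooled 5 capsules. A mouse had its eyes operated on 72 h apart, so an early and a late pool could hold capsules of the same animals, but no label says which. Every library's description holds a tag, RUNX_Cre_N, that no source used here explains, and no age is stated. Test results below measure the spread between pools, which may share animals.

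Ribosomal proteins are built together with ribosomal RNA into a large subunit, which joins amino acids, and a small subunit, which reads the mRNA. Their mRNAs typically start at a C within a run of pyrimidines, the terminal oligopyrimidine (TOP) tract, through which the mTORC1 kinase and the RNA-binding protein Larp1 set how much of them is translated. Lens epithelial cells divide and supply the fiber cells of the normal lens, and those that stay on the capsule after surgery respond to the wound.

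The start-site windows of 12 members are shown so that they can be compared by pyrimidine tracts near the annotated start. They are the 3 called higher, 5 of the 6 with the largest falls, and Rplp0, Rplp2, Rps6 and Rpsa. The latter are core members with a smaller fall or none called. Each window runs 5′ to 3′ on the strand of its gene, from 15 bases before the RefSeq start to 15 bases from it, in assembly GRCm38.p6. Capitals mark the longest tract, defined as a C followed by at least 4 bases that are each C or T and searched on the gene's strand only.
Rps2 (higher at 72 h, chr17:24720048-24720077, plus strand): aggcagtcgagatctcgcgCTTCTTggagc
Rpl22l1 (higher, chr3:28805493-28805522, plus strand): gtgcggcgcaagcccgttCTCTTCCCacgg
Rpl13a (higher, chr7:45128731-45128760, minus strand): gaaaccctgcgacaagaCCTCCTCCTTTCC
Rplp2 (not called, chr7:141447636-141447665, plus strand): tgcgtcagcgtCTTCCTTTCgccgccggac
Rpsa (not called, chr9:120127751-120127780, plus strand): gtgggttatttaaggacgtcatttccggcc
Rplp0 (lower, chr5:115559452-115559481, plus strand): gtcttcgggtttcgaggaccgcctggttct
Rps6 (lower, chr4:86857353-86857382, minus strand): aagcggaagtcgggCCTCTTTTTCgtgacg
Rpl14 (lower, chr9:120571502-120571531, plus strand): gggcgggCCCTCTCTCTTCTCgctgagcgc
Rps26 (lower, chr10:128626492-128626521, minus strand): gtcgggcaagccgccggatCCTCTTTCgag
Rpl31 (lower, chr1:39367836-39367865, plus strand): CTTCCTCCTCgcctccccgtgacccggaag
Rpl37 (lower, chr15:5116598-5116627, plus strand): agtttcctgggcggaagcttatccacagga
Rpl26 (lower, chr11:68901551-68901580, plus strand): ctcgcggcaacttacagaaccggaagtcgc

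RefSeq windows were found for 64 members, and 42 of them (65.6%) held such a tract in at least 1 window, against 40.3% of all 27025 genes with a window. The tract was found in 23 of the 37 members with a window that were called lower (62.2%), in 3 of 3 called higher and in 13 of 19 that were not called (68.4%). Rpl14 has a tract of 14 bases and a log2 change of -0.92, and Rpl26 has none in its window and a change of -0.98. Whether a tract bears on the change was not tested. Of 76 member windows, 54 had the RefSeq gene start as their start. A match is a description of the letters and not a shown site of control. It can lie before the start, outside the annotated mRNA, as that of Rpl31 does, and need not be a TOP tract. A tract that starts outside the 30 bases is not counted.

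The libraries held between 11338820 and 12432688 counts in genes at 0 h and between 8453450 and 8945397 at 72 h. Their makeup differed between the groups: the crystallin share went from 16.2% ± 0.551 to 1.98% ± 0.794 between 0 h and 72 h, and that of the mitochondrial genome from 3.85% ± 0.0862 to 20.01% ± 4.67 (SD, n = 3 libraries in each group). All 10 genes listed as lens epithelium markers were detected and tested, and 9 of the 10 fell. Their sum went from 82119 to 87988 CPM (counts scaled to the same library size) at 0 h to 11209 to 20077 CPM at 72 h. The list holds the crystallin genes Cryaa, Cryab and Crybb3, so this sum overlaps the crystallin share and does not measure the epithelium apart from it. It also holds Prox1 and Maf, and whether its genes are specific to the epithelium against fiber cells was not tested. Of 16 macrophage and monocyte markers 12 rose (36.1 to 52.6 CPM summed at 0 h, 217 to 411 CPM at 72 h), and 3 of the 4 tested neutrophil markers of 12 listed rose (0.931 to 2.45 and 26.6 to 167 CPM), with the defining Ly6g, Mpo, Elane, Camp and Ngp at 0 in every library. Of 4 tested fibroblast markers 3 rose and 1 fell (207 to 271 and 517 to 872 CPM summed over the 6 listed, with Dpt at 0 in every library). All 10 tested lens fiber markers and 9 of 10 photoreceptor markers fell, the latter from 692 to 1693 CPM to 62.5 to 160 CPM. None of 10 lymphocyte markers had enough counts to be tested. Replicate 3 of 72 h stood apart, with 25.3% mitochondrial counts against 18.1% and 16.6% in the other 72 h libraries and with a summed level of 7 keratin markers of 5177 CPM. In pooled tissue, fewer cells of a type and less RNA per cell cannot be told apart, and the part of these shifts in the ribosomal protein values was not tested.

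The ribosomal protein mRNAs fell together. Of the 79 members with enough counts to be tested, 56 were lower at 72 h and 3 were higher (edgeR quasi-likelihood test, Benjamini-Hochberg adjusted p under 0.05 over 15407 genes), while 20 did not pass. Among all tested genes 17.5% were called lower and 21.0% higher. The median log2 change of the members was -0.56, a ratio of 0.679, beside -0.02 for all tested genes, and 67 of 79 had a change below 0. The 0 h and 72 h libraries did not overlap in 62 members that were lower and 5 that were higher at 72 h, against 26.9% and 26.5% of all tested genes.

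**Figure D1:**
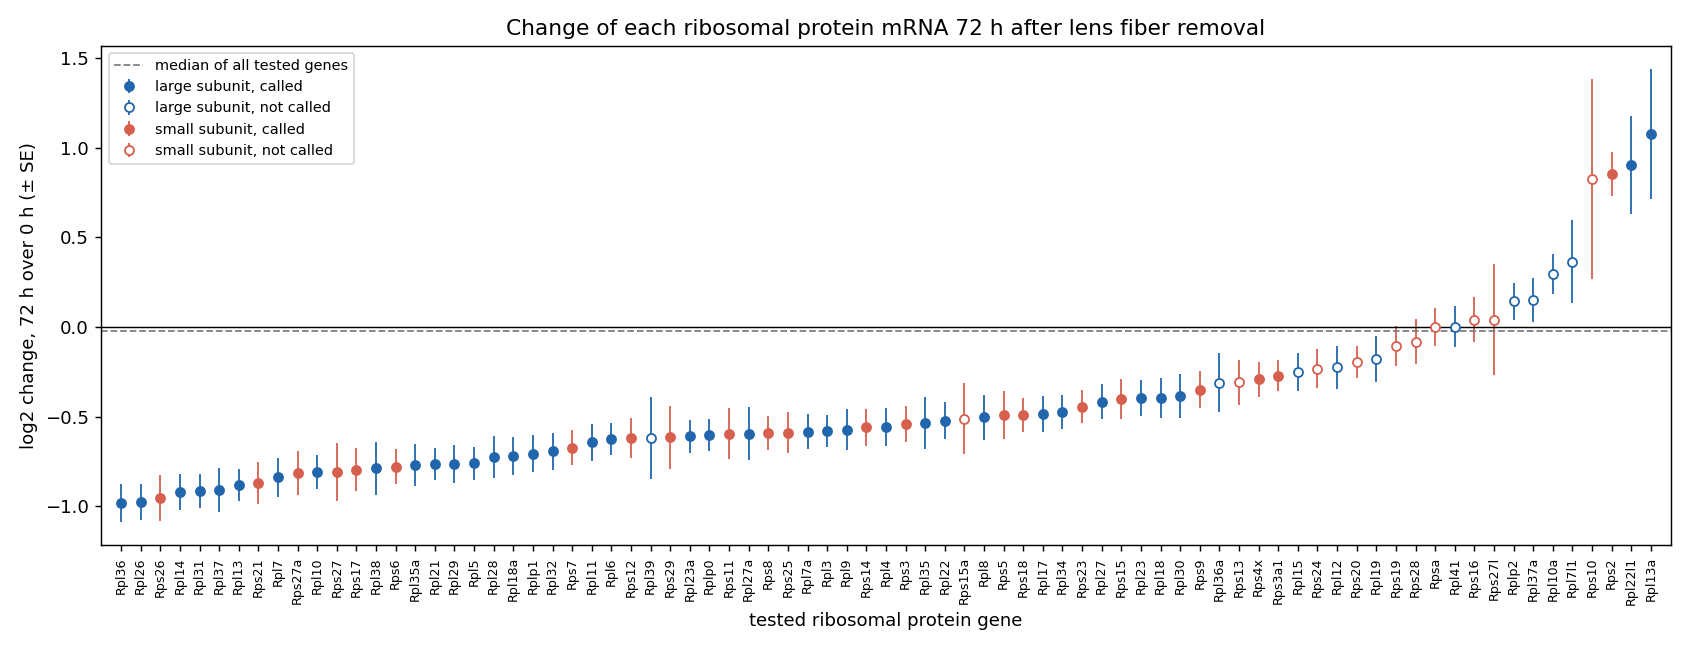
Log2 change at 72 h over 0 h (vertical axis, bars ± SE of the edgeR fit) of the 79 tested ribosomal protein genes, ordered by change, blue for the large and red for the small subunit, filled where called. The 56 filled points of called falls lie left of the members near 0, and Rps2, Rpl22l1 and Rpl13a are the filled points above it; the dashed line is the median of all tested genes, -0.02.

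As part of all counts in genes, the family made up 2.01%, 1.90% and 2.10% in the 0 h libraries and 1.502%, 1.46% and 1.20% in the 72 h libraries. The mean went from 2.00% ± 0.0984 to 1.39% ± 0.166 (SD, n = 3), and the groups did not overlap. With the crystallin and mitochondrial genes taken out of the total, the share was 2.51% ± 0.111 and 1.77% ± 0.123. Replicate 3 of 72 h, the library with the most mitochondrial counts, had the lowest share on both scales.

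Both subunits had more falls than rises. Of 47 tested large subunit genes 35 were lower and 2 higher, with a median log2 change of -0.58. Of 32 small subunit genes 21 were lower and 1 higher, with a median of -0.49. The part of the family's counts that fell to large subunit genes was 65.3%, 64.7% and 64.9% at 0 h and 60.2%, 61.1% and 61.2% at 72 h, a change of -4.11 percentage points with no overlap. Without the 2 abundant small subunit genes Rps2 and Rpsa, chosen after their values were seen, the large subunit took 69.5% ± 0.292 and 68.3% ± 0.111, a change of -1.15 points.

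**Figure D2:**
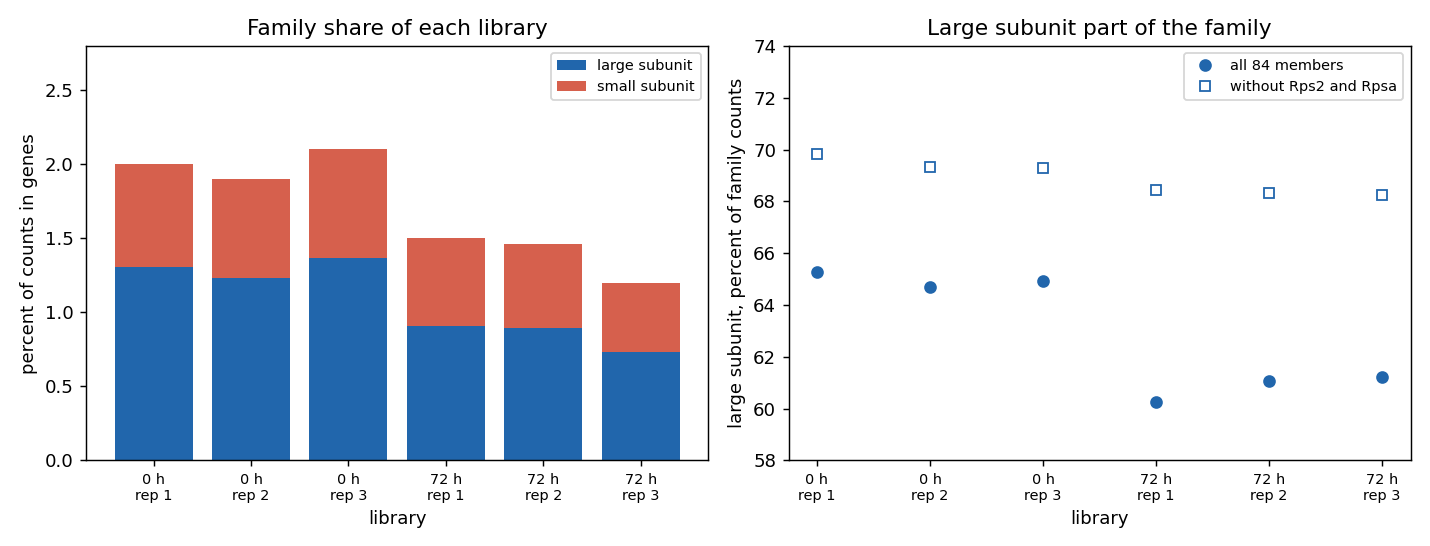
Left, percent of each library's counts in genes that fell in large (blue) and small (red) subunit genes, stacked, for the 6 libraries; right, the large subunit's percent of the family's counts with all 84 members (filled) and without Rps2 and Rpsa (open), on an axis that starts at 58. The family share lies at 1.90 to 2.10% in the 0 h libraries and at 1.20 to 1.502% in the 72 h libraries.

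The stalk of the large subunit, which recruits elongation factors to the ribosome, is made of Rplp0 with Rplp1 and Rplp2 bound to it. Rplp0 was at 1108, 1078 and 1188 CPM in the 0 h libraries and at 752, 747 and 721 CPM at 72 h. All 3 later libraries lay below all earlier ones, and the log2 change was -0.60 ± 0.09 (SE, edgeR adjusted p = 0.00051). Rplp1 went from 521, 456 and 538 CPM to 311, 331 and 285 CPM, also without overlap (log2 change -0.71 ± 0.11, edgeR adjusted p = 0.00054). Its partner Rplp2 did not pass the test and had 369, 357 and 388 CPM at 0 h and 423, 444 and 364 CPM at 72 h. Replicates 1 and 2 of 72 h lay above all 0 h libraries and replicate 3 among them, and the log2 change of Rplp2 was 0.14 ± 0.10 (edgeR adjusted p = 0.31). Without 72 h replicate 3 Rplp2 was called higher, at 0.23 and an edgeR adjusted p of 0.037; over the alternatives run that p ranged from 0.037 to 0.70.

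Rpl5 and Rpl11 join the 5S ribosomal RNA, and the complex they form is known to bind Mdm2 when ribosome assembly is disturbed. Rpl5 was at 662, 709 and 678 CPM at 0 h and at 394, 426 and 388 CPM at 72 h. Rpl11 was at 182, 192 and 195 CPM and then at 132, 122 and 110 CPM. Both fell with no overlap between the groups, by 0.76 and 0.64 on the log2 scale (edgeR adjusted p = 0.00014 and 0.00085).

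The largest falls with a mean of at least 10 CPM were those of Rpl36, Rpl26, Rps26, Rpl14, Rpl31 and Rpl37, each to a little over 50% of its 0 h level. Rpl36, a large subunit protein, went from 152, 141 and 152 CPM to 69.1, 74.2 and 82.2 CPM (log2 change -0.98 ± 0.11, edgeR adjusted p = 7.5e-05). Rpl26, which lies near the exit of the peptide tunnel, went from 640, 566 and 638 CPM to 333, 301 and 303 CPM (log2 change -0.98 ± 0.10, edgeR adjusted p = 4.5e-05). In both genes every 72 h library was below every 0 h library. Rps26, a small subunit protein at the mRNA exit channel, went from 207, 196 and 219 CPM to 106, 125 and 90.002 CPM (log2 change -0.95 ± 0.13, edgeR adjusted p = 0.00031), and replicate 3 of 72 h was the lowest. Rpl14 fell by 0.92, Rpl31 by 0.92 and Rpl37 by 0.91 on the log2 scale. Rpl31 varied least of these, with 147, 147 and 144 CPM at 0 h and 75.01, 77.9 and 78.9 CPM at 72 h. These 6 genes stayed lower in every alternative that was run with a test.

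Rps6, the small subunit protein that S6 kinases phosphorylate downstream of mTORC1, went from 416, 433 and 439 CPM to 234, 241 and 275 CPM. The groups did not overlap, and the log2 change was -0.78 ± 0.10 (edgeR adjusted p = 0.00020). Rps27a, which is made as a fusion with ubiquitin, went from 272, 273 and 300 CPM to 175, 173 and 132 CPM (log2 change -0.82 ± 0.13, edgeR adjusted p = 0.00066). Fau, a gene outside the symbol rule, encodes a ribosomal protein fused to a ubiquitin-like protein. Fau did not pass, with 206 ± 7.07 CPM at 0 h and 218 ± 11.2 CPM at 72 h (log2 change 0.08 ± 0.09, -0.01 with upper-quartile scaling).

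Rps2 was the member with the clearest rise. This small subunit protein sits near the mRNA entry channel and is a known substrate of arginine methylation. It was at 333, 322 and 320 CPM at 0 h and at 661, 624 and 482 CPM at 72 h. The 0 h libraries lay close together, all 72 h libraries lay above them, and replicate 3 was the lowest of the latter. The log2 change was 0.86 ± 0.12 (edgeR adjusted p = 0.00046), and Rps2 was the member called higher in all 16 alternatives with a test, between 0.76 and 0.99. Its annotated mRNA exons overlap another gene on the same strand over 7.32% of their bases.

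Rpsa, the small subunit protein also known as the laminin receptor, kept its level on this scale. It had 953, 951 and 982 CPM at 0 h and 1103, 923 and 861 CPM at 72 h, a wider spread around the same mean. The log2 change was 0.00 ± 0.11 (edgeR adjusted p = 1.00, from 0.41 to 0.99 over the alternatives), and its sign depended on the setting. Rpl41 (254 ± 11.5 and 254 ± 32.9 CPM), Rps16 (76.9 ± 6.44 and 79.2 ± 8.68 CPM) and Rpl37a (63.9 ± 0.952 and 70.8 ± 7.92 CPM) also had overlapping groups and did not pass. Rpl10a went from 95.4, 100.3 and 102 CPM to 107, 136 and 123 CPM. All its 72 h libraries were above all its 0 h libraries, but the log2 change of 0.30 ± 0.11 did not pass (edgeR adjusted p = 0.063). Without 72 h replicate 1 or replicate 3, and with a stricter filter on low counts, Rpl10a did pass, at 0.032, 0.047 and 0.041.

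**Figure D3:**
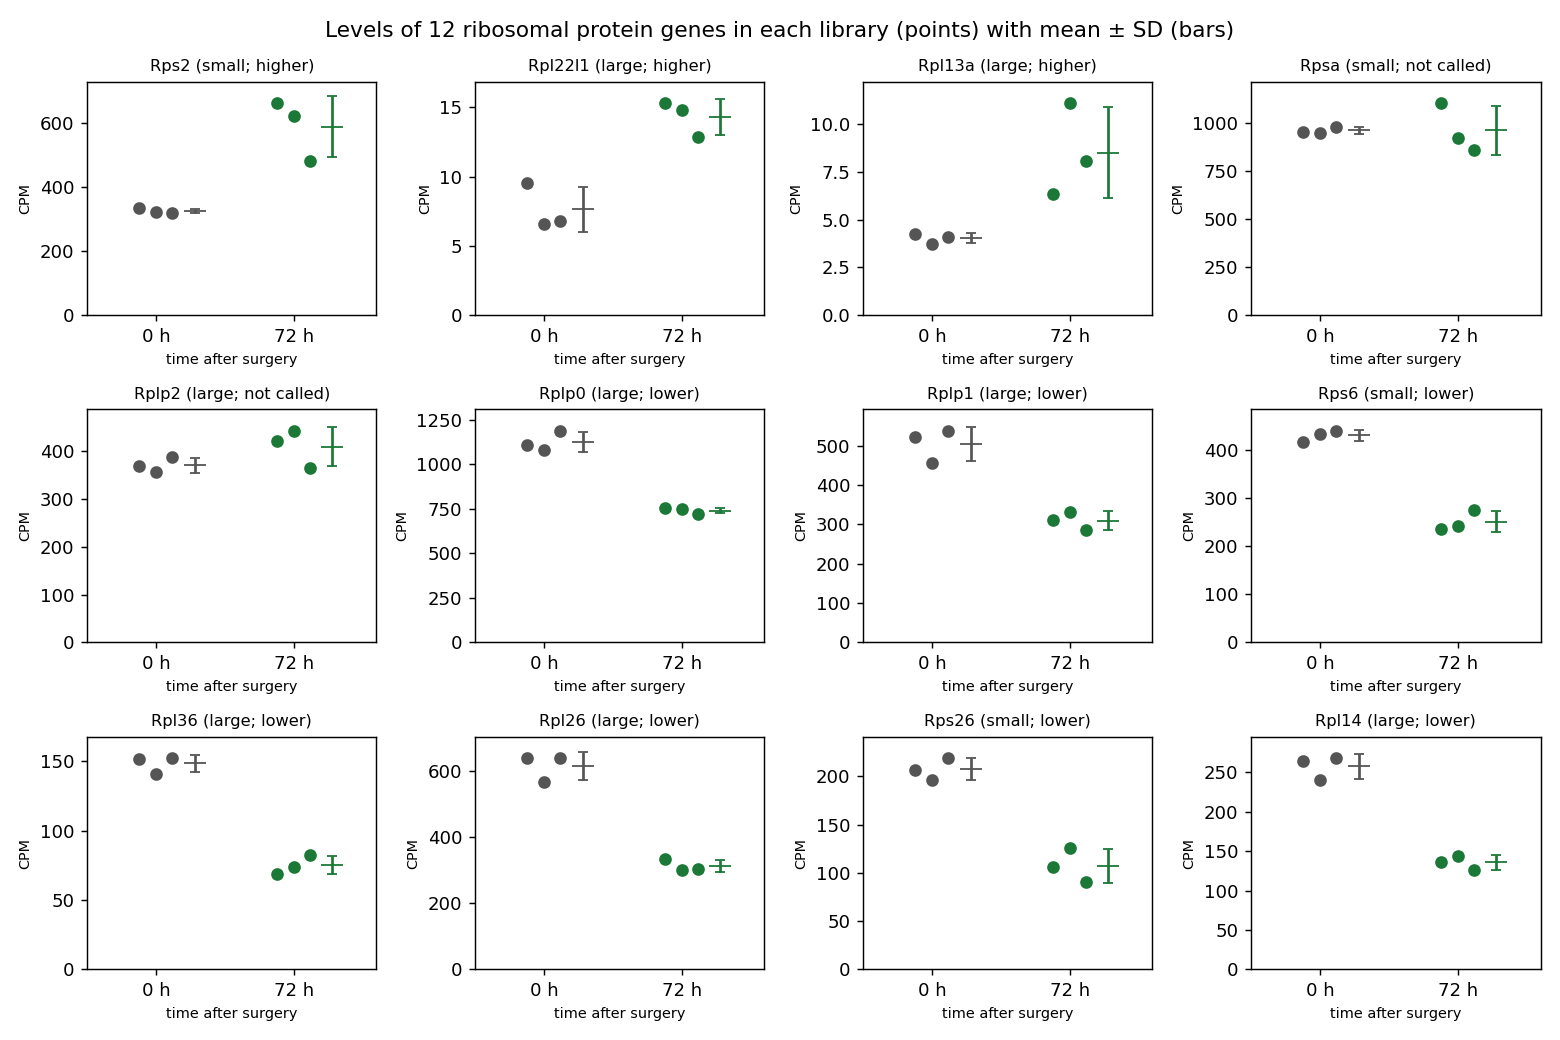
CPM of 12 ribosomal protein genes in the 3 libraries of 0 h (grey) and of 72 h (green), with the mean ± SD beside the points; each panel's axis starts at 0 and the title gives the subunit and the edgeR call. Rps2, Rpl22l1 and Rpl13a are higher at 72 h, Rpsa and Rplp2 overlap, and the other 7 genes are lower with no overlap.

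Some ribosomal protein genes have a paralog, a related gene, and 3 paralogs among the members had enough counts to be tested. Whether their products take the place of the counterpart in the ribosome was not tested. Rpl22l1, the paralog of Rpl22, had 9.51, 6.60 and 6.78 CPM at 0 h and 15.3, 14.8 and 12.8 CPM at 72 h. The groups did not overlap, and the log2 change was 0.91 ± 0.27 (edgeR adjusted p = 0.025). Rpl22 itself fell from 254 ± 16.7 to 177 ± 14.3 CPM (SD, n = 3; log2 change -0.52 ± 0.10, edgeR adjusted p = 0.0030). Counts of Rpl22l1 were therefore 3.01% ± 0.669 of those of Rpl22 at 0 h and 8.08% ± 0.0964 at 72 h, a 2.68-fold difference on this unscaled count ratio. The call of Rpl22l1 was lost without 0 h replicate 2 (edgeR adjusted p = 0.106), 0 h replicate 3 (0.0997), 72 h replicate 1 (0.0638) or 72 h replicate 2 (0.0543), and p ranged from 0.0079 to 0.106 over the alternatives.

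Rpl7l1, the paralog of Rpl7, had 32.4, 31.2 and 33.8 CPM at 0 h and 45.5, 53.6 and 26.4 CPM at 72 h. Its 72 h replicate 3 lay below, and the other 2 above, every 0 h library. The log2 change was 0.36 ± 0.23 (edgeR adjusted p = 0.25), and without 72 h replicate 3 it was 0.62 with an adjusted p of 0.0036. Rpl7 fell from 616 ± 38.6 to 344 ± 36.0 CPM (log2 change -0.84 ± 0.11, edgeR adjusted p = 0.00022). Rpl7l1 counts were 5.28% ± 0.135 of Rpl7 counts at 0 h and 11.97% ± 2.99 at 72 h.

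Rps27l, the paralog of Rps27 and a known p53 target, overlapped between the groups at 7.44, 7.96 and 10.96 CPM and 10.9, 8.43 and 7.83 CPM (log2 change 0.04 ± 0.31, edgeR adjusted p = 0.93; -0.04 with upper-quartile scaling). Rps27 fell from 48.9 ± 2.82 to 27.9 ± 4.67 CPM (log2 change -0.81 ± 0.16, edgeR adjusted p = 0.0033). Rps27l counts were 18.0% ± 3.71 of Rps27 counts at 0 h and 32.6% ± 4.33 at 72 h.

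The remaining paralogs were at or near the limit of detection. Rpl10l, known from the testis, had 0 counts in every library, while Rpl10 fell by 0.81 on the log2 scale. Rpl3l, known from muscle, had 3 counts in the 0 h libraries and 1 at 72 h, and Rpl3 fell by 0.58. Rpl39l had 0 counts at 0 h and 14 at 72 h, all of them in replicate 2, and its counterpart Rpl39 had 29.4 ± 1.42 and 19.1 ± 5.93 CPM without passing (edgeR adjusted p = 0.057). Rpl39 was called lower without 72 h replicate 2 (edgeR adjusted p = 0.0087), and also with upper-quartile scaling, no filter, DESeq2 and voom, over a range of 0.0087 to 0.16. Rpl36al had 18 counts in each group, and Rpl36a (89.0 ± 9.21 and 71.6 ± 15.2 CPM) did not pass. Rps4x fell by 0.29 on the log2 scale (edgeR adjusted p = 0.038, from 0.015 to 0.15 over the alternatives), and this call was lost without any 1 of the 0 h libraries or 72 h replicate 3, and also with library size alone, no filter or the replicate block. Its relative Rps4l is annotated as a pseudogene and was not a member.

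The counts of 4 members are uncertain because over 20% of their annotated exon bases lie in another gene on the same strand: Rpl24 (47.0%), Rpl13a (35.4%), Rpl36al (24.5%) and Rps10 (20.6%). Rpl13a, a large subunit protein, was called higher, with 4.24, 3.72 and 4.10 CPM at 0 h and 6.37, 11.1 and 8.07 CPM at 72 h (log2 change 1.08 ± 0.36, edgeR adjusted p = 0.040). Its level was far below that of most members, and the call was lost without any 1 of the 0 h libraries or 72 h replicate 2, and also with upper-quartile scaling, library size alone, no filter or the replicate block. Over the alternatives its adjusted p ranged from 0.016 to 0.13. Rps10, a small subunit protein, had 1.5001 ± 0.0715 CPM at 0 h and 2.67 ± 0.134 CPM at 72 h without passing (log2 change 0.83 ± 0.56, edgeR adjusted p = 0.28). With the counts of its 4 named pseudogenes added, the change of Rps10 turned to -0.96. Rpl24 had at most 3 counts in a library and was not tested.

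Levels of different members were set side by side per length of the annotated mRNA, so a long annotated form lowers the value of its gene. Besides Rps15a below, this holds for Rps20 (158 CPM at 0 h, 3706 bases, 42.7 CPM per kilobase) and Rpl18 (152 CPM, 2989 bases, 50.8 CPM per kilobase). Reads lost to pseudogenes were not corrected for in these levels. Per kilobase, Rpl26 (1014 ± 69.3 CPM), Rplp1 (1012 ± 86.9 CPM) and Rplp0 (828 ± 41.9 CPM) were highest at 0 h, and Rpl26 and Rplp1 did not differ beyond their spread. At 72 h Rplp1 had 620 ± 46.5, Rplp0 545 ± 12.2, Rps2 538 ± 86.7 and Rpl26 515 ± 29.9 CPM per kilobase, and the last 3 overlapped. The lowest over both times were Rps10 (1.69 ± 0.0806 CPM per kilobase at 0 h), Rpl13a (3.84 ± 0.254) and Rps15a (15.8 ± 1.56); at 0 h alone the paralogs Rpl7l1 (12.5 ± 0.499) and Rpl22l1 (13.8 ± 2.95) lay below Rps15a. Rps15a is divided there by an annotated mRNA of 5179 bases, and with 81.7 ± 8.06 CPM before that division it is not a rare mRNA. Its fall to 57.3 ± 16.1 CPM did not pass (edgeR adjusted p = 0.070), while without 72 h replicate 1 (0.047) and with upper-quartile scaling, no filter or voom it did, over a range of 0.016 to 0.22. The median level was 217 CPM per kilobase for 46 large subunit genes at 0 h and 160 at 72 h, and 264 and 176 for 31 small subunit genes. Across these 77 genes the log2 levels at 0 h and 72 h had a Pearson r of 0.96, and the log2 change had an r of -0.45 with the 0 h level and 0.12 with mRNA length. The log2 change is computed from the 0 h level too, so a negative r between change and 0 h level can arise from noise alone. The genes share their libraries and are not independent replicates, so these values of r are descriptions.

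**Figure D4:**
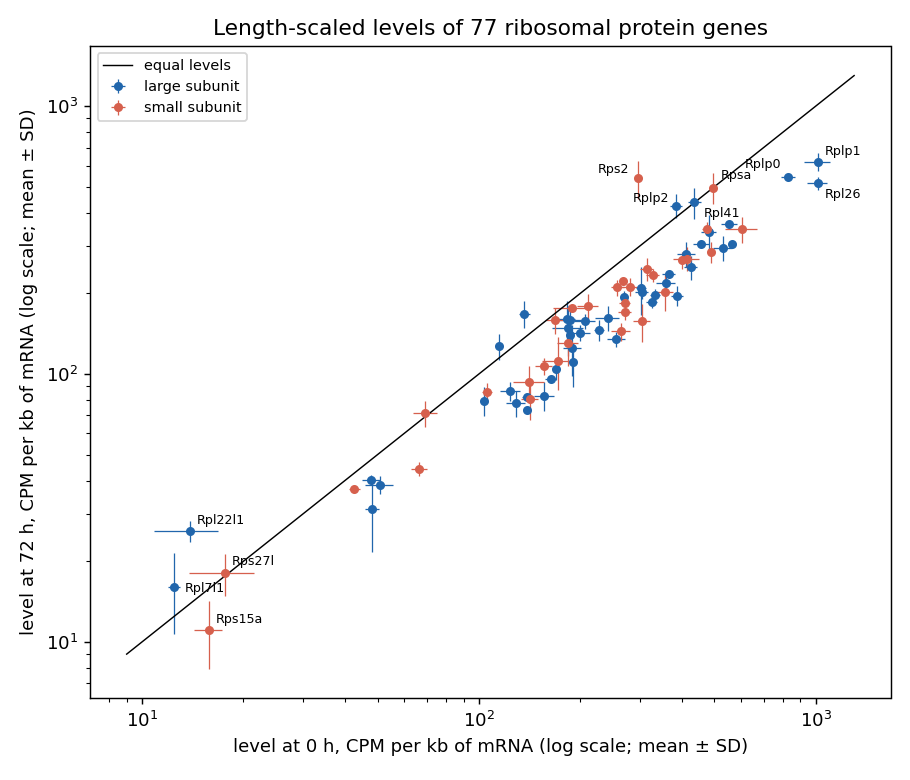
Level at 72 h (vertical) against level at 0 h (horizontal), both in CPM per kilobase of mRNA on log axes, for 77 tested ribosomal protein genes without Rpl13a and Rps10; points are means of 3 libraries and bars the SD. Most points lie below the line of equal levels, while Rps2 and Rpl22l1 lie above it and Rpsa lies on it.

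Scaled to the family's own total in place of all genes, the members can be compared with each other without the crystallin or mitochondrial counts. On this scale 14 of 79 members were higher and 15 lower at 72 h, where 37.7% of all tested genes were higher and 8.42% lower, and the median of all tested genes moved by the scaling to 0.46. On it 7 large and 7 small subunit genes rose against the family, and 11 large and 4 small subunit genes fell. Among members with a mean of at least 10 CPM, the largest relative rises were those of Rpl22l1 (1.39 ± 0.27), Rps2 (1.33 ± 0.11, edgeR adjusted p = 6.0e-06), Rpl7l1 (0.83 ± 0.21) and Rpl10a (0.78 ± 0.13). Below that level Rpl13a had 1.57 ± 0.37 and Rps10 1.31 ± 0.57, the latter without passing. Rplp2, Rpsa, Rpl41, Rpl37a, Rps16 and Rpl13a also rose against the family under every alternative. The largest relative falls were those of Rpl26 (-0.49 ± 0.09), Rpl36 (-0.49 ± 0.13), Rps26 (-0.47 ± 0.11) and Rpl14 (-0.44 ± 0.10). Rpl13, Rpl14, Rpl26 and Rps26 were lower against the family in every alternative. The 15 became 4 without 0 h replicate 1, 7 without 0 h replicate 2 and 8 without 0 h replicate 3.

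Other genes of the translation machinery are read against the 21.0% of all tested genes that were called higher and the 17.5% called lower. Of 89 ribosome biogenesis factors 20 rose (22.5%, near the share of all tested genes) and 3 fell (3.37%, below it), with a median log2 change of 0.24. Npm1, a nucleolar chaperone, went from 127, 114 and 109 CPM to 288, 286 and 217 CPM (log2 change 1.18 ± 0.13, edgeR adjusted p = 8.5e-05). Eif6, which keeps the large subunit from joining too early, rose by 1.12 ± 0.15, while Gnl2, a GTPase of large subunit assembly, fell by 0.98 and Dkc1, the pseudouridine synthase, by 0.82. The 20 became 13 without 0 h replicate 1 and 31 without 72 h replicate 3. Of 16 chaperones and importers of ribosomal proteins 3 fell (18.8%, near the 17.5% of all tested genes), among them the histone chaperone Nap1l1 (-1.18) and the importin Ipo8 (-0.42), and 0 rose by edgeR; 1 fell without 0 h replicate 2 or 3, and 2 rose without 72 h replicate 3.

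Other mRNAs known to carry a TOP tract fell in most cases. Of 24 tested 13 fell (54.2%, against 17.5% of all tested genes) and 4 rose (16.7%, against 21.0%), with a median log2 change of -0.43. The elongation factor Eef1a1 went from 2611, 2481 and 2709 CPM to 1787, 2023 and 1727 CPM (log2 change -0.49 ± 0.10, edgeR adjusted p = 0.0031), and Naca, a chaperone at the tunnel exit, fell by 0.61. Npm1 and the splicing regulator Hnrnpa1 (0.79 ± 0.09) rose. Without 0 h replicate 3, 8 fell, and without 0 h replicate 1 or 2, 2 rose. This list, like the other lists below, was drawn up with earlier results of these data known. It shares genes with the lists of biogenesis, initiation and elongation factors and of chaperones, such as Npm1, Eif3h, Eef1a1 and Nap1l1. The counts of these lists are therefore not separate results.

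Translation factors were called in both directions. Of 49 tested initiation factors and their regulators, inhibitors included, 11 rose (22.4%) and 14 fell (28.6%), against 21.0% and 17.5% of all tested genes. Their median of -0.02 was that of all tested genes. Eif4ebp1, which restrains cap-dependent initiation, rose by 1.44 ± 0.23, and Eif2ak4, a kinase that senses uncharged tRNA, by 0.92 ± 0.13. Eif4a2, an RNA helicase, fell by 1.14, and Eif3h, a subunit of the Eif3 complex, by 0.63. Without 0 h replicate 1, 7 genes of the initiation list rose and 8 fell. Of the same list 7 rose without 0 h replicate 2, and 5 fell without 0 h replicate 3. Of 20 elongation and termination factors and their regulators 2 rose and 5 fell, against the same 21.0% and 17.5%. Eef2k, which inhibits the elongation factor Eef2, rose by 1.04 ± 0.22 and Eif5a by 0.48 ± 0.10, while Eef1a2 went from 7.97 ± 2.72 to 0.789 ± 0.384 CPM.

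**Figure D5:**
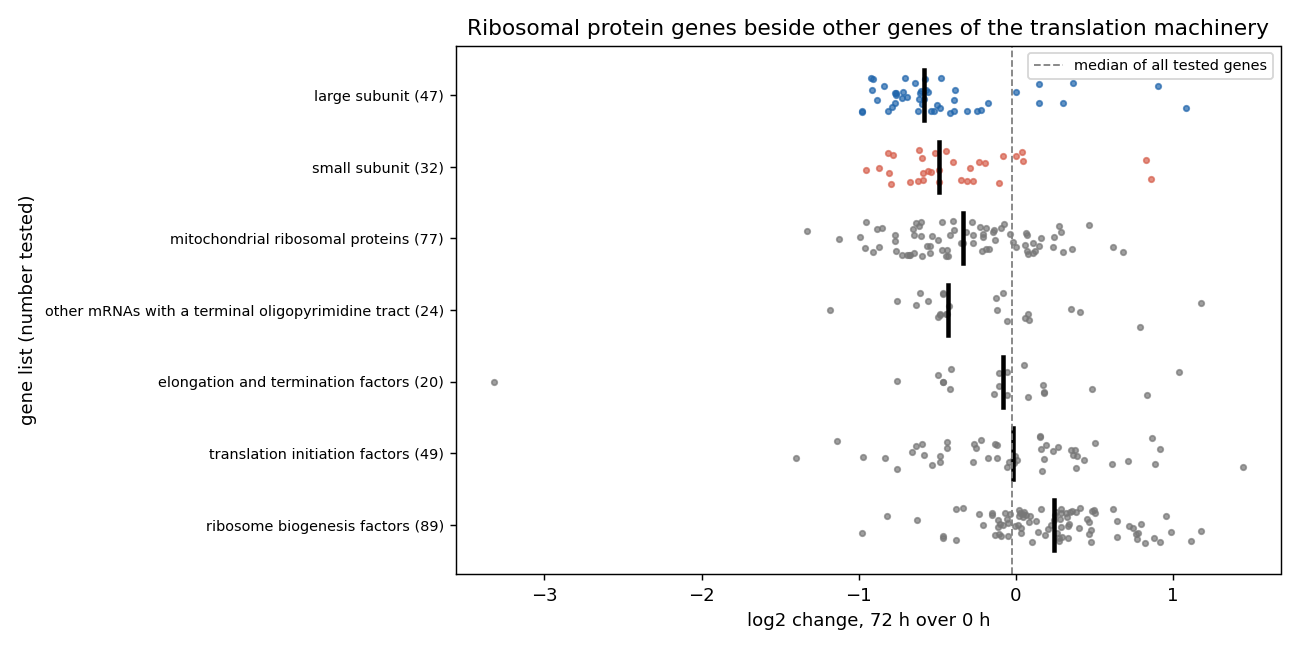
Log2 change at 72 h over 0 h of the tested genes of 7 lists, 1 point a gene, with the list's median as a black bar and the median of all tested genes as a dashed line; vertical scatter within a list has no meaning. The large subunit (-0.58), small subunit (-0.49), other TOP mRNAs (-0.43) and mitochondrial ribosomal proteins (-0.34) have medians below the dashed line, and ribosome biogenesis factors (0.24) above it. Some genes of the other TOP mRNAs are plotted in another list too.

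Among 37 genes of the mTORC1 pathway and of TOP mRNA control, 5 rose (13.5%) and 8 fell (21.6%), against 21.0% and 17.5% of all tested genes, with a median of -0.14. Besides Eif4ebp1, the RNA-binding protein Larp4b rose (0.46 ± 0.11). More of the called inhibitors of mTORC1 fell than rose. Sesn1 and Sesn3 fell by 2.01 and 1.69. Tsc2 (-0.39), Tbc1d7 (-1.24) and Castor2 (-0.56) fell too (edgeR adjusted p = 0.0084, 0.021 and 0.030). Sesn2 (1.49 ± 0.44, edgeR adjusted p = 0.024) and Ddit4 (0.89 ± 0.24, edgeR adjusted p = 0.015) rose. Tsc2, Tbc1d7, Castor2, Sesn2 and Ddit4 were named after their values were seen. The kinase gene Mtor, also named after its values were seen, fell from 629 ± 19.6 to 257 ± 39.6 CPM (log2 change -1.29 ± 0.12, edgeR adjusted p = 2.8e-05). Rptor and Mlst8, of the same complex, did not pass. Without 0 h replicate 2 or 3, 3 rose, and without 0 h replicate 1, 5 fell. The Myc network includes known activators and repressors of ribosome production, though not every gene listed is one. Of its 14 genes 4 rose (28.6%) and 2 fell (14.3%), against 21.0% and 17.5% of all tested genes. Myc went from 5.45, 5.16 and 4.57 CPM to 41.0, 29.5 and 39.7 CPM (log2 change 2.86 ± 0.22, edgeR adjusted p = 8.8e-06), and Mycn from 68.4, 67.4 and 66.0 CPM to 4.63, 11.4 and 7.83 CPM (log2 change -3.08 ± 0.28, edgeR adjusted p = 2.7e-05). The groups did not overlap in either gene. Mlxip rose by 0.86 ± 0.16 and Mxi1 fell by 0.54, the latter call being lost without any 1 of the 0 h libraries, 72 h replicate 1 or 72 h replicate 2. Without 0 h replicate 1 or 3, 2 of the network rose, and without any 1 of the 0 h libraries or 72 h replicate 1, 1 fell.

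Of 20 genes of the p53 checkpoint that ribosomal stress is known to engage, 12 rose and 4 fell, against 21.0% and 17.5% of all tested genes, with a median log2 change of 1.00. Phlda3, an inhibitor of Akt, went from 8.65, 9.14 and 10.1 CPM to 63.6, 55.7 and 59.6 CPM (log2 change 2.68 ± 0.16, edgeR adjusted p = 1.5e-06). The kinase Plk2 rose by 4.80 ± 0.33, and Zfp365 fell by 1.62. Of 17 genes of ribosome quality control 2 rose, Ascc3 (0.76 ± 0.13) and Nemf (0.62 ± 0.12), and 4 fell, among them Usp10 (-0.97 ± 0.12) and Ascc1 (-1.24 ± 0.20). These shares are 11.8% and 23.5%, against 21.0% and 17.5% of all tested genes. Without 0 h replicate 3, 2 of them fell.

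The ribosomal proteins of mitochondria, a separate set of genes, had a median log2 change of -0.34 over 77 tested genes, and 10 fell and 1 rose (1.30%), both below the shares of all tested genes called. Mrps25 fell by 0.87 and Mrpl42 by 0.99, and Mrpl24 rose by 0.68 ± 0.16. Single libraries moved these counts: 6 fell without 0 h replicate 1, 5 without 0 h replicate 2 or 3, and 16 without 72 h replicate 2, and Mrpl24 was not called without 0 h replicate 3. Their groups did not overlap in 21 genes that were lower and 3 that were higher, where 26.9% and 26.5% of all tested genes did so.

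For the ribosomal protein genes the count of falls lay between 45 (without 0 h replicate 3) and 56 with any 1 library left out. It was 30 to 36 for the large and 15 to 21 for the small subunit. The count of rises depended on single libraries too. Of 3, 1 was left without 0 h replicate 2, 0 h replicate 3 or 72 h replicate 2, and 6 were called without 72 h replicate 3.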

How the data were processed

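Per the labels' protocols, RNA of pooled lens capsules was extracted with a Qiagen RNeasy Mini Kit, and libraries were Takara SMARTer Stranded Pico v2. The authors deposited raw counts per gene, 1 file a library. The submitters' processing notes list HISAT2, HTSeq and edgeR with build GRCm39; no source used here gives versions, annotation release or strand setting, and counts of overlapping and antisense genes are uncertain. The 5 lines of reads in no gene (41.9% to 51.7% of reads) were left out.

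Symbols came from GENCODE M21 (GRCm38), in which 51999 of 56940 identifiers were found, and so did mRNA lengths and exon overlaps. Start windows came from RefSeq (GRCm38.p6). Genes passing filterByExpr (minimum count 10, total 15) were fitted on all 6 libraries with TMM scaling and tested two-sided with the quasi-likelihood test of edgeR 4.0.16 in R 4.3.3; the limit was an adjusted p of 0.05. CPM use TMM-scaled library sizes. DESeq2 1.42.0, limma 3.58.1 (voom), other scalings and filters, added pseudogene counts, a removed length trend, a replicate block and each library left out were alternatives. The procedure was tested on simulated data in which a small part of the genes changed, equally many up and down. The simulation did not copy the shift in crystallin and mitochondrial counts, so it does not show how the procedure handles that shift. Intervals are SD over the libraries of a group, or the SE of the edgeR fit. That fit estimates the spread of a gene with the help of the other tested genes, so its SE is not the spread of the 3 libraries alone.

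Members and lists were chosen with earlier results of these data known. Genes named with values were the stalk and core members, the paralogs and their counterparts, the members with the largest changes, the highest and lowest per length, and up to 2 genes each way per list. Sesn2, Ddit4, Mtor, Tsc2, Tbc1d7 and Castor2 were named in addition, after their values were seen.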

Additional observations from a re-analysis of the deposited data

Results flagged for a closer look

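The lines of reads that the counting put in no gene, which enter no comparison above, held more at 72 h than at 0 h in 3 of 5 classes. Reads with more than 1 alignment went from 4.53% ± 0.150 of all reads in the 0 h libraries to 7.32% ± 0.832 in those of 72 h (SD, n = 3). Reads that did not align went from 13.02% ± 1.27 to 19.7% ± 4.07. Reads of low alignment quality went from 3.29% ± 0.303 to 3.84% ± 0.0974. The largest class at 0 h, aligned reads outside any annotated gene, went the other way, from 22.0% ± 1.47 to 17.7% ± 1.76. Ambiguous reads were at 1.15% ± 0.0471 and 1.12% ± 0.0777. How many of these reads belong to ribosomal protein genes was not tested.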

How the results depend on the processing

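Members called lower at 72 h numbered 45 to 61 over all alternatives, and 45 members were lower in each of the 16 with a test. With the replicate block, 53 were lower and 2 higher, and large subunit rises fell to 1; the correlations of same-numbered libraries (-0.04, 0.06 and -0.01) gave no pairing. Large subunit rises (2) were also 1 with upper-quartile scaling, library size alone, no filter, or the members with shared exons left out. Leaving out 1 library gave 1 to 6 rises in the family, 0 to 5 in the large subunit, 4 to 19 relative falls, and medians of -0.59 to -0.46 (small subunit -0.54 to -0.43). The median was -0.64 with upper-quartile scaling (small subunit -0.58) and -0.43 with the length trend removed (-0.36). Rpsa, near 0, turned to -0.084 with upper-quartile scaling, -0.041 with library size alone, -0.011 with no filter, -0.0073 with voom, -0.0078 with the replicate block and -0.0013 with pseudogene counts added, and to between -0.12 and -0.02 without 0 h replicate 1, 0 h replicate 2 or 72 h replicate 1 (highest leaving out 1 library, 0.086). Rps27l turned to -0.040 with upper-quartile scaling and to between -0.12 and -0.04 without 0 h replicate 1, 0 h replicate 2 or 72 h replicate 1 (highest, 0.23); Rps10 to -0.96 with pseudogene counts added; and Fau to -0.0059 with upper-quartile scaling. The cause was not tested. With 3 libraries a group, members under about 20 counts per library could not be judged. The list counts and the results without the 4 members with shared exons were added after the data were seen.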
